A study of Mus musculus with 8 samples.

Results

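The 10 genes described here encode 5 S100 proteins (S100a4, S100a6, S100a10, S100a11 and S100a13), 3 annexins (Anxa1, Anxa2 and Anxa6) and 2 galectins (Lgals1 and Lgals3), families that T cells raise after activation. They were chosen by name, with earlier results of these data known, and all 10 were found among the 25078 genes of the deposited tables. The shares of all genes given below are therefore a background and not a test of the set. RNA-seq was done on donor T cells taken from the spleen at day 6 after hematopoietic cell transplantation (HCT), in 8 libraries that form 4 groups of 2. The groups are CD4 and CD8 T cells of WT donors and CD4 and CD8 T cells of STAT3ko donors. Per the study's methods, donors were C57BL/6 mice, either WT or carrying floxed Stat3 and a Cre driven by Cd4 regulatory sequences, so that Stat3 is deleted in T cells of both lineages. In all 4 groups these T cells were given with T cell-depleted WT C57BL/6 bone marrow to irradiated WT BALB/c recipients, and H-2Kb+ TCRβ+ cells were sorted as CD4+ or CD8+. Each library pooled lymphocytes of 3 recipients, and donor ages were not given in the sources used here. STAT3 is a transcription factor that carries cytokine signals. The comparisons ask how T cells of STAT3ko donors differed from those of WT donors, and whether CD4 and CD8 T cells differed alike. The study describes recipients of WT T cells as having graft-versus-host disease and recipients of STAT3ko T cells as free of it. Genotype and recipient disease therefore cannot be told apart here. The words effect, response or loss of STAT3 below name the difference between these groups.

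S100 proteins are small EF-hand proteins, most of which bind calcium and then dock on other proteins. Annexins bind phospholipid membranes when calcium is present. Galectins are lectins that bind β-galactosides on glycoproteins of the cell surface, and inside the cell some of them act without sugar. The families meet in 1 well known complex: S100a10 binds Anxa2, and together they attach the giant scaffold protein Ahnak to the plasma membrane. Several members are low in naive T cells and high in effector and memory T cells, where they accompany changes of shape, adhesion and migration.

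Stat3 itself checked the genotype labels, because it fell by 1.63 (SE 0.12, log2 scale) in STAT3ko CD4 and by 1.72 (SE 0.12) in STAT3ko CD8 T cells, with adjusted p-values of 0.000753 and 0.00536. Total counts ran from 20171396 to 23282757 per library, and 12428 genes passed the filter on low counts, the 10 members among them. The smallest member count in any library was 764 (Anxa1) and the largest was 42419 (Lgals1), both in STAT3ko CD8 libraries. The 3 defining genes of CD4 T cells summed to between 1664 and 1876 CPM (counts scaled to library size) in the CD4 libraries and to between 58.1 and 77.4 in the CD8 libraries. The 3 of CD8 T cells summed to between 20.5 and 57.0 CPM in the CD4 libraries and to between 1901 and 2236.5 in the CD8 libraries. Cd8a in the CD4 libraries was at 2.88 (WT) and 1.67 (STAT3ko) in replicate 1 and at 11.5 and 15.9 in replicate 2. RNA of other cells was low for most marker genes but uneven between replicates. Of 14 macrophage or monocyte markers, 13 were in the table, none of them was at 0 throughout a group, and their summed level in replicates 1 and 2 was 75.2 and 169 CPM among WT CD4 T cells against 125 and 284 in the STAT3ko CD4 group, and 164 and 349 among WT CD8 T cells against 203 and 345 in the STAT3ko CD8 group. C1qa, a gene of macrophages, stood at 1.03 to 3.05 CPM in the 4 replicate 1 libraries and at 13.7 to 22.9 in the 4 replicate 2 libraries, so that differences are also given within each replicate number below. Dendritic cell markers summed to between 14.5 and 16.7 CPM in the CD4 and between 161 and 273 in the CD8 libraries, where Itgax alone gave 160 to 272. Fibroblast or endothelium markers summed to between 142 and 415 CPM, of which Pecam1 gave 141 to 413. Neutrophil marker genes summed to at most 22.8 CPM, B cell genes to at most 13.3, and 6 globin genes were at 0 in all 8 libraries. The part of such RNA in the differences below was not tested. These are bulk samples, in which fewer cells that express a gene and less of its RNA per cell cannot be told apart.

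The upstream sequence of 3 members is shown because the results separate them: Anxa1 and Anxa2 were higher in STAT3ko than in WT CD4 T cells, while S100a11 did not pass the test in any comparison. The windows are the 250 bases before the RefSeq start site (GRCm38.p6), read on the strand of the gene, at chr19:20390672-20390921 (minus strand) for Anxa1, chr9:69453433-69453682 (plus strand) for Anxa2 and chr3:93520246-93520495 (plus strand) for S100a11. Capitals mark matches to the AP-1 motif TGANTCA, the GC box GGGCGG or its complement, and the TATA box TATAAA, the last on the gene strand only. A search on both strands for the STAT motif TTCNNNGAA found no match in these windows.
Anxa1: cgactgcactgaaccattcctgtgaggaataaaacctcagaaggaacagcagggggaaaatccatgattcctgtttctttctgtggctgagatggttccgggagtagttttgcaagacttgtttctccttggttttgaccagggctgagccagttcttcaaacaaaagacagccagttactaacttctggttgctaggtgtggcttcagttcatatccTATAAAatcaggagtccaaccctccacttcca
Anxa2: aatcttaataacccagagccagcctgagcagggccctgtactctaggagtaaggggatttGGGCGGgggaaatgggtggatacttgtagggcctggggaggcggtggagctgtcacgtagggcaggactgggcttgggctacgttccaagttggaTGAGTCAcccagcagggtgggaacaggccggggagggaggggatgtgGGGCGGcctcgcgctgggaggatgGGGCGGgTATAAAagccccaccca
S100a11: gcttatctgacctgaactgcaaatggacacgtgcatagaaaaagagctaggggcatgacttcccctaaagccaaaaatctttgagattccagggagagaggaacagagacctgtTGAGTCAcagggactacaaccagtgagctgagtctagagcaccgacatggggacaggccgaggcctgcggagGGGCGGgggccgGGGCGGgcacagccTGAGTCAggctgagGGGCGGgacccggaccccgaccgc
Anxa1 has a TATA box alone, Anxa2 has a TATA box, an AP-1 match and 3 GC boxes, and S100a11 has AP-1 matches and GC boxes without a TATA box. RefSeq promoter entries were matched for 7 of the 10 members, not for S100a10, Anxa6 or Lgals1, and all 7 start sites equal the gene boundary in the deposited tables. A STAT motif was in 0 of the 7 windows, an AP-1 motif in 2, a GC box in 3 and a TATA box in 3. Over all 32851 promoter windows of the same length the shares were 7.02% for the STAT motif, 6.75% for AP-1, 32.7% for the GC box and 7.59% for the TATA box. A match is a description of these letters and not a site of binding, and its absence says nothing about the factor beyond this window.

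Most members were abundant transcripts in these cells, and Anxa1 and S100a13 were less so. On the RPKM scale, which divides counts by library size and exon length and so allows levels of different genes to be compared, S100a4 led with group means of 2163 ± 388 for WT CD4, 2601 ± 51.3 for STAT3ko CD4, 2972 ± 137 for WT CD8 and 3045 ± 465 for STAT3ko CD8 T cells (SD, n = 2 libraries each). In those groups it ranked 6, 4, 3 and 4 among all genes. S100a4, also called metastasin, binds non-muscle myosin and is linked to cell motility. Lgals1 had means of 836 to 2241 RPKM, S100a10 of 913 to 2099 and S100a6 of 745 to 1269. Anxa2 reached 716 RPKM, Anxa6 598 and Lgals3 528, each in WT CD8 T cells. S100a11 stayed between 272 and 330 RPKM and S100a13 between 112 and 147, where it ranked 357 to 546. Anxa1 was the lowest member, with 28.2 ± 4.4 RPKM in WT CD8 and 63.5 ± 6.45 in STAT3ko CD4 T cells and ranks of 1159 to 2965 over the 4 groups. Together the members took 0.445% and 0.494% of all counts among WT CD4 T cells against 0.645% and 0.690% in the STAT3ko CD4 group, and 0.863% and 0.906% among WT CD8 T cells against 0.952% and 0.829% in the STAT3ko CD8 group. The shares were lowest in WT CD4 T cells, and the CD4 groups did not overlap.

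**Figure D1:**
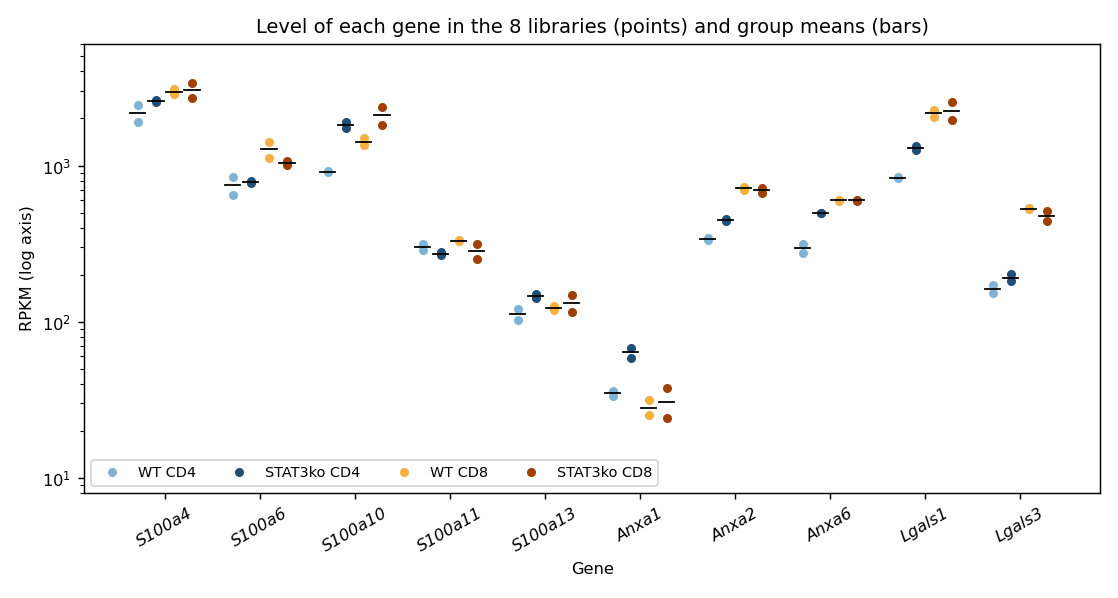
RPKM of each of the 10 genes (log axis) in each library (points) with the mean of each group of 2 (bars). S100a4 is highest in every group, Anxa1 is lowest, and 8 genes have higher means in both CD8 groups than in WT CD4, all except S100a11 and Anxa1.

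In CD4 T cells, loss of STAT3 went with higher levels of S100a10, of all 3 annexins and of Lgals1. These 5 of 10 members passed the test and no member passed it in the lower direction, against a background of 11.6% of all genes called, 6.54% as higher and 5.08% as lower. The median log2 fold change of the members was 0.43, beside 0.02 over all genes tested. The groups did not overlap for 9 of the 10, as they did not for 53.5% of all genes. Values within a gene are given as CPM scaled by TMM factors, and tests are edgeR quasi-likelihood tests adjusted over 12428 genes.

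S100a10, which forms a complex with Anxa2, had the largest difference. The WT CD4 libraries held 603 and 583 CPM and the STAT3ko CD4 libraries 1147 and 1272, so that both STAT3ko values lay far above both WT values. It rose 2.04-fold (log2 fold change 1.03, SE 0.13, adjusted p = 0.00364), with differences of 0.93 within replicate 1 and 1.13 within replicate 2. The other 4 S100 genes did not pass this test. S100a4 had WT CD4 levels of 949 and 1205 CPM and STAT3ko CD4 levels of 1295 and 1349 (0.30, SE 0.14, adjusted p = 0.225), with 0.45 and 0.16 within replicates 1 and 2. S100a13, a carrier for export of proteins without signal peptide, was at 74.3 and 85.1 CPM in WT and at 103 and 111 in STAT3ko (0.42, SE 0.13, and 0.46 and 0.38 within the replicates). Its adjusted p was 0.0872, and 0.0209 with the replicate number as a block, which is a call and makes 6 members called beside 30.1% of all genes. S100a6, calcyclin, had overlapping groups with 469 and 601 CPM in WT and 560 and 583 in STAT3ko (0.10, SE 0.16, adjusted p = 0.745), and its difference was 0.26 within replicate 1 and -0.04 within replicate 2. S100a11, calgizzarin, a partner of Anxa1, was at 147 and 157 CPM in WT and at 142 and 137 in STAT3ko (-0.12, SE 0.11, adjusted p = 0.548), with -0.05 and -0.19 within the replicates. S100a10 thus stood apart from the other S100 members in size of difference.

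All 3 annexins rose. Anxa1, the glucocorticoid-induced ligand of formyl peptide receptors, had 47.2 and 50.1 CPM in WT and 96.1 and 84.3 in STAT3ko CD4 libraries. This was a 1.85-fold rise (0.89, SE 0.21, adjusted p = 0.0314) with differences of 1.02 and 0.74 within replicates 1 and 2. Anxa6, a large annexin with 2 annexin cores that links membranes to the actin cortex, was at 846 and 728 CPM in WT and at 1332 and 1360 in STAT3ko. The rise was 1.71-fold (0.78, SE 0.094, adjusted p = 0.00313), 0.66 within replicate 1 and 0.90 within replicate 2. Anxa2, the partner of S100a10, was at 459 and 469 CPM in WT and at 611 and 644 in STAT3ko. Its rise was smaller, 1.35-fold (0.44, SE 0.090, adjusted p = 0.0209), but nearly alike within the replicates at 0.41 and 0.46.

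Of the galectins, Lgals1 rose and Lgals3 did not pass the test. Lgals1, a lectin that binds Cd7, Spn (CD43) and Ptprc (CD45) on T cells, had 667 and 670 CPM in WT and 1021 and 1088 in STAT3ko CD4 libraries. The rise was 1.58-fold (0.66, SE 0.13, adjusted p = 0.0164), 0.61 and 0.70 within the replicates. Lgals3, the chimera-type galectin that forms lattices on branched N-glycans, was at 218 and 240 CPM in WT and at 260 and 290 in STAT3ko (0.26, SE 0.12, adjusted p = 0.19), with groups that did not overlap and 0.25 and 0.27 within the replicates. The calls of S100a10 and Anxa6 held when any library was left out. Without WT CD4 replicate 1, WT CD4 replicate 2, STAT3ko CD4 replicate 1 or STAT3ko CD4 replicate 2, only these 2 members were called, and the adjusted p was then 0.0966 to 0.174 for Anxa1, 0.0684 to 0.150 for Anxa2 and 0.0575 to 0.109 for Lgals1.

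In CD8 T cells, no member passed the test between STAT3ko and WT, where 2.07% of all genes were called. At an unadjusted p under 0.05 there was 1 member, S100a10, beside 19.3% of all genes, and the median log2 fold change of the members was 0.03 (all genes -0.01). S100a10 was at 972 and 890 CPM in WT CD8 and at 1550 and 1217 in STAT3ko CD8 T cells, again without overlap. Its difference was 1.49-fold (0.57, SE 0.13, adjusted p = 0.0713), 0.67 and 0.45 within the replicates. With the replicate number as a block the adjusted p was 0.00684, with DESeq2 0.00327 and without the filter on low counts 0.0461, each of which is a call (18.2% of all genes were called with the block). The other 9 members had log2 fold changes between -0.28 (S100a6) and 0.13 (Anxa1). The groups did not overlap for 4 members, against 49.8% of all genes: S100a10 was higher in STAT3ko, and S100a6, S100a11 and Lgals3 were lower.

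The annexins and Lgals1, which rose in CD4 T cells, lay close together in the CD8 groups. Anxa6 was at 1615 and 1605 CPM in WT CD8 and at 1599 and 1641 in STAT3ko CD8 (0.01, SE 0.094). Anxa2 was at 1004 and 978 in WT and at 992 and 940 in STAT3ko (-0.04, SE 0.090). For both annexins the difference lay within the spread of the libraries. Lgals1 was at 1816 and 1656 CPM in WT and at 2045 and 1592 in STAT3ko, with the STAT3ko libraries on either side of the WT libraries. Anxa1 was at 35 and 44.4 CPM in WT and at 52.5 and 34.4 in STAT3ko, which is likewise an overlap. For S100a4, S100a13, Anxa1 and Lgals1 the difference was positive within replicate 1 and negative within replicate 2, from 0.58 to -0.36 in Anxa1. STAT3ko CD8 replicate 1 was above replicate 2 for 9 members, all except Anxa6.

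**Figure D2:**
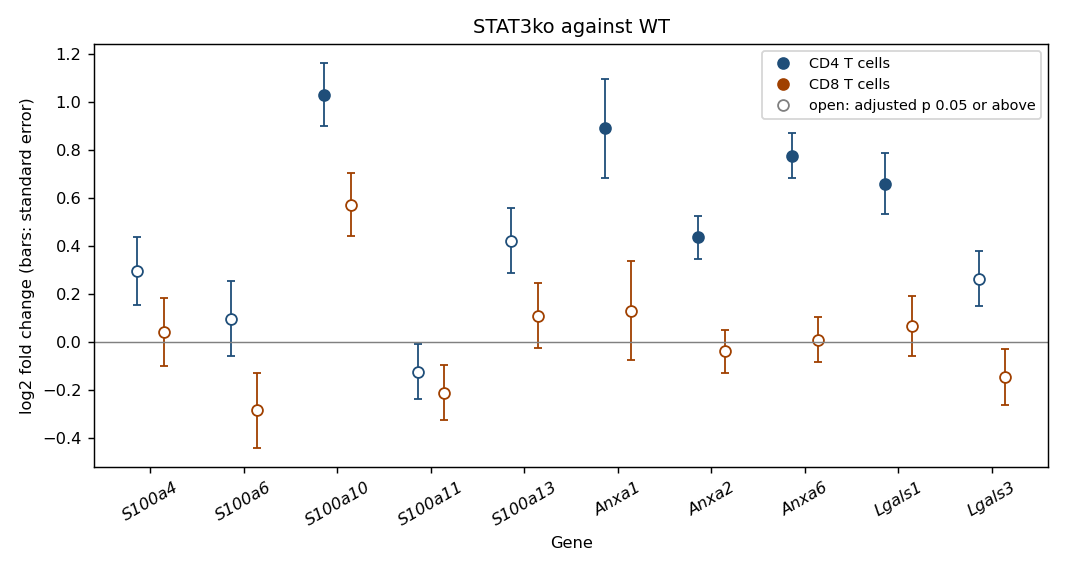
Log2 fold change of STAT3ko against WT for each gene, in CD4 (blue) and CD8 (brown) T cells, with bars of 1 standard error. Filled points, 5 of the blue and 0 of the brown, passed the test, and every CD8 point lies below the CD4 point of its gene.

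The effect of STAT3 loss in CD8 minus that in CD4 T cells was negative for all 10 members, from -0.77 (Anxa6) to -0.09 (S100a11), with a median of -0.43 beside -0.02 over all genes. It was negative within replicate 1 and within replicate 2 for each of the 10. The shares of all genes that were negative in the mean or within both replicates were not counted. The 10 values come from the same 8 libraries and are not independent of each other. No member was called by edgeR, where 0% of all genes were, while 6 of 10 members and 7.9% of all genes were at an unadjusted p under 0.05. Those 6 were S100a10, Anxa1, Anxa2, Anxa6, Lgals1 and Lgals3. With the replicate block 3.24% of all genes were called, among them Anxa6 (adjusted p = 0.0115, without the block 0.130) and Anxa2 (0.0490, without the block 0.314), and DESeq2 called the same 2 members (0.000343 and 0.0359). Thus a smaller response of CD8 T cells was called for these 2 annexins under those fits and for none of the members in the fit without the block.

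Within WT, CD8 T cells held more of most members than CD4 T cells. Here 7 of 10 members were called as higher in CD8 and none was called as lower, with 23.8% of all genes called, 12.2% as higher and 11.6% as lower. The median log2 fold change was 0.72 (all genes 0.00), and the groups did not overlap for 10 of 10 members, as for 59.3% of all genes. Both galectins led: Lgals3 was at 738 and 760 CPM in WT CD8 against the 218 and 240 of WT CD4, a 3.28-fold difference (1.71, SE 0.12, adjusted p = 0.000143). Lgals1 was 2.60-fold higher (1.38, SE 0.13, adjusted p = 0.000362). Anxa2 was 2.14-fold (1.10, SE 0.091, adjusted p = 0.000248) and Anxa6 2.05-fold higher (1.03, SE 0.095, adjusted p = 0.000343). Among the S100 genes, S100a6 with 809 and 1032 CPM in WT CD8 was 1.72-fold higher (0.78, SE 0.16, adjusted p = 0.00970) and S100a10 was 1.57-fold higher (0.65, SE 0.13, adjusted p = 0.00976). S100a4 with 1435 and 1556 CPM in WT CD8 was 1.39-fold higher (0.47, SE 0.14, adjusted p = 0.0459). All 7 were higher in CD8 within both replicate numbers, from 0.37 (S100a4, replicate 2) to 1.76 (Lgals3, replicate 1).

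The galectin and Anxa2 and Anxa6 calls held without any 1 library. S100a4 was not called with total counts (adjusted p = 0.0608), with the 4 compared libraries alone (0.0893) or when any library other than WT CD4 replicate 2 was left out (0.0506 to 0.184), S100a10 was at 0.050 without WT CD4 replicate 2 and 0.0693 without WT CD8 replicate 1, and S100a6 was at 0.0564 without WT CD8 replicate 2. S100a11 (168 and 167 CPM in WT CD8) and S100a13 (90.7 and 85.8) differed from WT CD4 by 0.14 and 0.15 on the log2 scale and did not pass the test. Anxa1 alone had the other direction in the mean, at -0.29 (SE 0.21, adjusted p = 0.352). Summed macrophage markers were also higher in CD8 than in CD4 libraries of the same replicate number, with much of the sum from Itgam, at 113 and 96.1 CPM in WT CD8 against 36.7 and 22.9 in WT CD4. C1qa was 1.03 and 22.9 in WT CD8 against 1.59 and 13.7 in WT CD4. The difference of Lgals3 was 1.76 within replicate 1 and 1.66 within replicate 2. The part of macrophage RNA in the differences of the members was not tested.

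In STAT3ko T cells 3 members were higher and 1 was lower in CD8, and the distance between CD8 and CD4 was smaller in value for each member except Anxa1 and S100a13, and the test of this change is the same as that of the difference of effects above. Lgals3 (719 and 636 CPM in STAT3ko CD8) was 2.47-fold higher than in STAT3ko CD4 (1.30, SE 0.12, adjusted p = 0.000982), Lgals1 1.72-fold (0.79, SE 0.13, adjusted p = 0.00796) and Anxa2 1.54-fold (0.62, SE 0.090, adjusted p = 0.00530). Anxa1 was lower in CD8, at 0.482 of the CD4 level (-1.05, SE 0.21, adjusted p = 0.0164). Within replicates 1 and 2 the differences were 1.47 and 1.13 for Lgals3, 1.00 and 0.55 for Lgals1, 0.70 and 0.55 for Anxa2 and -0.87 and -1.28 for Anxa1. These 4 of 10 calls, 3 higher and 1 lower, stand beside 12.5% of all genes (5.84% higher and 6.67% lower), and the groups did not overlap for 7 of 10 members and 58.3% of all genes. With the replicate block S100a6 (775 and 738 CPM in STAT3ko CD8, 0.40, adjusted p = 0.140, with the block 0.0195) and Anxa6 (0.27, adjusted p = 0.11, with the block 0.0423) were called as well, where 29.7% of all genes were. S100a10, S100a11 and S100a13 had overlapping groups. Without STAT3ko CD4 replicate 1, only Lgals3 was called, with adjusted p of 0.104 for Anxa1, 0.0595 for Anxa2 and 0.0737 for Lgals1. Without STAT3ko CD4 replicate 2, Anxa1 (0.0545) and Lgals1 (0.0530) lost their calls, and without STAT3ko CD8 replicate 2 Anxa1 did (0.0675).

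**Figure D3:**
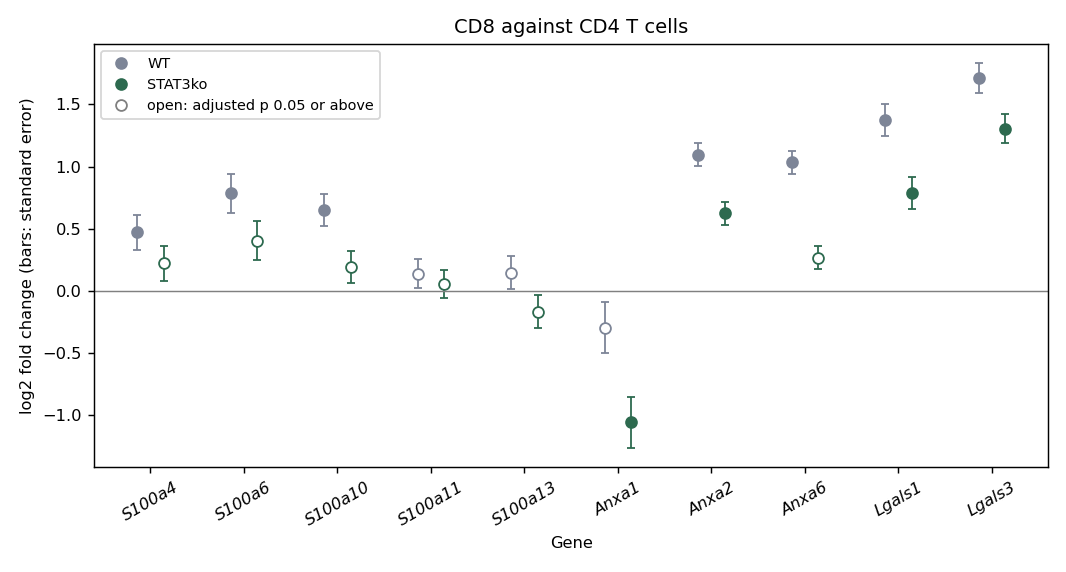
Log2 fold change of CD8 against CD4 T cells for each gene, in WT (grey) and STAT3ko (green) donors, with bars of 1 standard error. Filled points passed the test, 7 in WT and 4 in STAT3ko, and Anxa1 is the 1 filled point below 0.

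Across the 4 groups, 4 members shared an order. Anxa2, Anxa6, Lgals1 and S100a4 were lowest in WT CD4, then STAT3ko CD4, then both CD8 groups, with no overlap at either step and with overlapping CD8 groups. Lgals3 had the same steps, and its CD8 groups were also apart, at 636 to 719 CPM in STAT3ko and 738 to 760 in WT. The share of all genes with this order was not counted. Between the CD4 groups 53.5% of all genes did not overlap, and between the STAT3ko groups 58.3%. Neither step of S100a4 was called (adjusted p = 0.225 between the CD4 and 0.366 between the STAT3ko groups). Its nearest STAT3ko CD4 and STAT3ko CD8 libraries were at 1349 and 1387 CPM. The first step of Lgals3 was not called, nor was the second of Anxa6 without the block. The order of S100a10 differed in that STAT3ko CD4 lay above WT CD8, so that both STAT3ko groups were above both WT groups and overlapped each other. S100a6 was split by cell type, with CD4 groups that overlapped and both CD8 groups above them. Anxa1 was highest in STAT3ko CD4, and its other 3 groups overlapped from neighbour to neighbour. S100a11 had the narrowest range, with a highest mean 1.20 times the lowest. The widest were Lgals3 (3.28 times), Lgals1 (2.72), S100a10 (2.33) and Anxa1 (2.27).

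**Figure D4:**
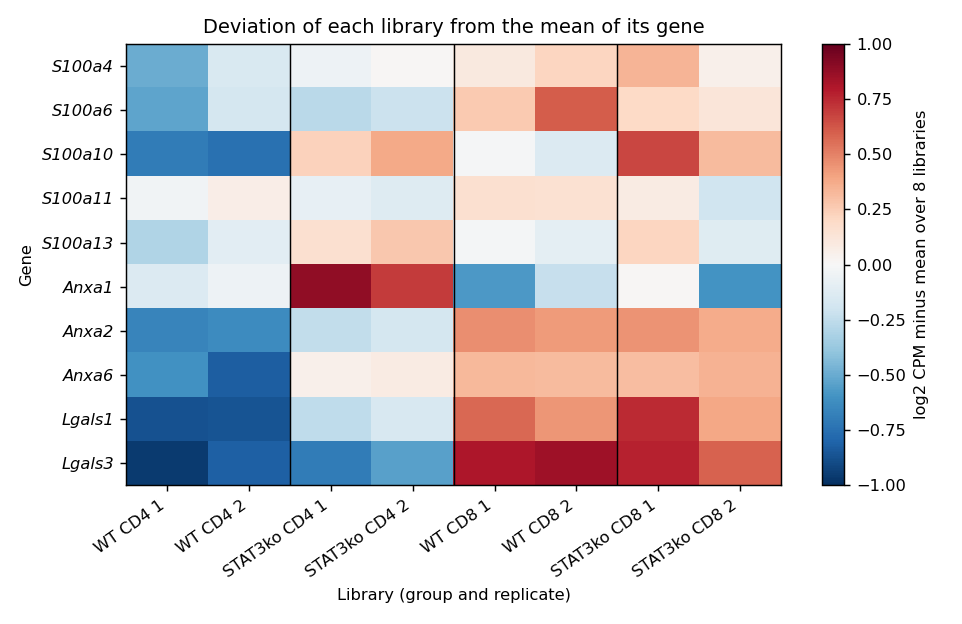
Log2 CPM of each gene in each library minus the mean of that gene over the 8 libraries, from blue (below) to red (above). Both WT CD4 libraries are below the mean for 9 genes. Anxa1, S100a10, S100a13 and Anxa6 are above it in both STAT3ko CD4 libraries, Anxa1 the most. S100a4, S100a6, Anxa2, Anxa6, Lgals1 and Lgals3 are above it in all 4 CD8 libraries.

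Patterns nearest to those of 3 members were searched among 8823 other genes of at least 3 in mean log2 CPM, by the root mean square difference of centred log2 CPM over the 8 libraries. Nearest to S100a4 were Mocs2, Dcaf4 and Myg1, with differences of 0.0619 to 0.0666, where S100a4 itself varied by 0.236. Nearest to Anxa2 were Rfc2, Anapc5 and Osbpl3, with 0.0607 to 0.0735 beside its own 0.457. Nearest to Lgals1 were Cks1b, Cenpa and Gins2, with 0.0827 to 0.104 beside its own 0.594.

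The 5 S100 members lie on chromosome 3 with 9 other S100 genes of the table. S100a13, S100a4 and S100a6 fall within 99.98 kb of each other, S100a11 and S100a10 within 44.1 kb, and 2906 kb lie between S100a6 and S100a11 in the coordinates of the deposited tables. The 5 members stood at 112 RPKM or more in every group, while the highest group mean of the other 9 genes ran from 0.0414 (S100a16) to 9.75 (S100a8). Neighbours also differed in response: S100a10 and S100a11 are 28.8 kb apart, and in CD4 T cells the one rose with the loss of STAT3 and the other was at -0.12. S100a8 and S100a9, the calprotectin genes of neutrophils, were at 2.51 to 9.75 RPKM and did not pass the test in any comparison, except that with the block S100a9 was called as lower in STAT3ko CD8 T cells (-1.21, adjusted p = 0.0495, without the block 0.294).

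**Figure D5:**
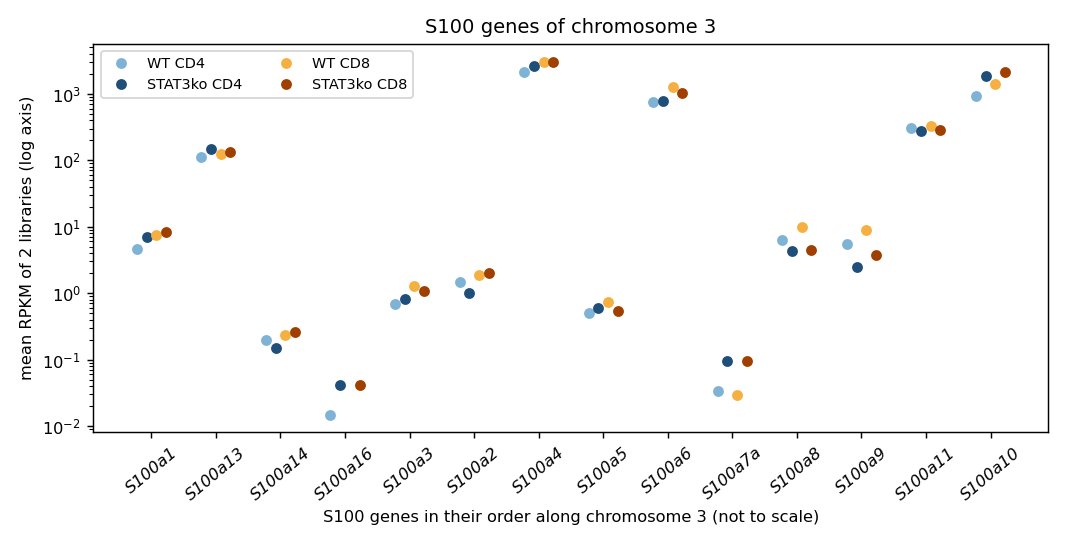
Mean RPKM (log axis) of the 14 S100 genes of chromosome 3 in the 4 groups, in their order along the chromosome (spacing not to scale). The 5 described genes are at 112 or above and the other 9 below 10, and S100a16, at 0 in WT CD8, has no point for that group.

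All 10 members are protein-coding genes in GENCODE M21 (mm10), with 3 exons in the reference transcript of S100a4, S100a6, S100a10 and S100a11, and 25 in that of Anxa6 (chr11:54978953-55033471). In that annotation S100a4 (chr3:90603770-90606045) shares 302 exon bases with Gm42674 on its own strand, and Anxa2 (chr9:69453683-69491785) shares 98 with the antisense gene Gm16144. Neither partner is a row of the deposited tables, and how the authors' counting treated strand is not given in the sources used here. S100a11 (chr3:93520496-93526288) has 2 processed pseudogenes, Gm12854 and Gm7665, with at least 95% identity over stretches of 51 bases, the read length, or longer, so that its counts are uncertain. The remaining 9 members have no such copy.

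Of the other genes of the 3 families, 1 was called between STAT3ko and WT in the fit without the block. Of 11 other S100 genes listed (S100a2 was not among them) 4 were tested and none was called in either comparison of STAT3ko with WT, while the block called S100a1 as higher in CD4 T cells (0.63, adjusted p = 0.0462, without the block 0.135) and S100a9 as given above. Of 9 other annexins 6 were tested, and Anxa4 rose in CD4 T cells, from 11.4 and 9.16 to 15.6 and 16.9 CPM (0.66, SE 0.14, adjusted p = 0.0234). Its CD8 levels were 17.7 and 18.3 in WT and 24.1 and 24.0 in STAT3ko (0.42, adjusted p = 0.148, with the block 0.0417, a call), and Anxa11 was called as lower there with the block alone (-0.33, adjusted p = 0.0317, without the block 0.383). Of 7 other galectins 4 were tested and none was called by STAT3 status without the block. With the block 1 of them was called as higher in STAT3ko CD4 T cells, beside 30.1% of all genes. Between the cell types, all 6 tested annexins had higher group means in CD8 than in CD4 T cells of either genotype. Anxa3 was near the limit of detection, with counts of 0 and 31 in STAT3ko CD4 and 6 and 28 in STAT3ko CD8 libraries. In replicate 2 of STAT3ko it was lower in CD8 (1.26 CPM) than in CD4 (1.42). In WT 3 of the 6 annexins were called (23.8% of all genes were), Anxa4 (0.81, SE 0.14, adjusted p = 0.00512), Anxa7 (0.53, SE 0.11, adjusted p = 0.0121) and Anxa11 (0.61, SE 0.18, adjusted p = 0.0456). In STAT3ko Anxa4 was called (0.57, SE 0.14, adjusted p = 0.0344), beside 12.5% of all genes. With the block 3 were called there, beside 29.7% of all genes. Lgals7 ran the other way, with 4.69 and 3.07 CPM in WT CD4 but 0.389 and 0.842 in WT CD8 (-2.64, SE 0.44, adjusted p = 0.00419), and with 5.25 and 7.22 in STAT3ko CD4 but 0.241 and 0.361 in STAT3ko CD8 (-4.34, SE 0.48, adjusted p = 0.00214).

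Of 13 binding partners and receptors, 3 rose with the loss of STAT3 in CD4 T cells and none was called as lower, beside 6.54% of all genes higher and 5.08% lower. Ahnak, the scaffold held by S100a10 and Anxa2, was at 1648 and 1423 CPM in WT CD4 and at 3372 and 4113 in STAT3ko CD4 (1.29, SE 0.14, adjusted p = 0.00217). Ahnak in CD8 T cells was at 2236 and 2568 in WT and at 3262 and 3920 in STAT3ko (0.58, SE 0.14, adjusted p = 0.0808, with the block 0.00927, a call). Ahnak thus followed S100a10, with STAT3ko above WT and no overlap in both cell types. Havcr2 (TIM-3), a receptor of galectin 9, rose from 83.9 and 58.9 to 134 and 112 CPM in CD4 T cells (0.78, SE 0.19, adjusted p = 0.0363). Cd7 rose from 39.1 and 36.8 to 56.6 and 63.2 (0.66, SE 0.10, adjusted p = 0.00711), beside its ligand gene Lgals1. Havcr2 in CD8 T cells was at 342 and 294 in WT and at 284 and 246 in STAT3ko (-0.26, adjusted p = 0.506), and Cd7 differed by -0.04 (adjusted p = 0.872). The effect in CD8 minus that in CD4 T cells was called with the block for Havcr2 (-1.05, adjusted p = 0.00430, without the block 0.291) and Cd7 (-0.70, 0.0148, without the block 0.175). The block alone called Spn (0.35, adjusted p = 0.126, with the block 0.0118) and the formyl peptide receptor gene Fpr1 in CD4 T cells, which makes 5 of 13 beside 30.1% of all genes. Fpr1 was near the limit of detection, with counts of 1 and 6 in WT CD4 and 1 and 26 in STAT3ko CD4 libraries (adjusted p = 0.507, with the block 0.0449), and Fpr2 was not called.

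Of 8 glycan enzymes that make or mask galectin ligands, 1 was called in CD4 T cells, a share near the 11.6% of all genes. Gcnt1, which starts core 2 branches on O-glycans, fell from 82.2 and 84.5 CPM in WT CD4 to 30.8 and 38.2 in STAT3ko CD4 (-1.27, SE 0.17, adjusted p = 0.00473). Its CD8 levels were 66.3 and 66.9 in WT and 35.4 and 49.6 in STAT3ko (-0.65, SE 0.17, adjusted p = 0.10, with the block 0.00521, a call). St6gal1, a sialyltransferase that caps galactose, was called as lower with the block alone in both cell types (-0.41 in CD4 and -0.63 in CD8, adjusted p = 0.00820 and 0.00187 with the block, 0.152 and 0.0924 without). In all, the block called 2 of the 8 as higher and 3 as lower in CD4, and 3 as lower in CD8 T cells, where it called 30.1% and 18.2% of all genes.

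Genes of effector and memory T cell shape and adhesion were called in part. In CD4 T cells 3 of 10 rose (6.54% of all genes did), the integrin genes Itga4 (1291 and 1123 to 2633 and 2621 CPM, 1.12, SE 0.086, adjusted p = 0.000837) and Itgb1 (1792 and 1692 to 3603 and 3563, 1.04, SE 0.12, adjusted p = 0.00275), which form VLA-4, and the membrane protein gene Emp3 (46.1 and 54.7 to 85.4 and 93.9, 0.83, SE 0.12, adjusted p = 0.00609). Of the same list 2 rose in CD8 T cells (2.07% of all genes were called), Itgb1 (1.01, SE 0.12, adjusted p = 0.0144) and Itga4 (0.58, SE 0.085, adjusted p = 0.0256). Cd44 was not called in either, and the block added Crip1 and Capg as higher in CD4 (0.45 and 0.35) and Vim and Capg as lower in CD8 T cells (-0.31 and -0.32), beside 30.1% and 18.2% of all genes. For the effect in CD8 minus that in CD4 T cells, the block alone called Emp3 (-0.72, adjusted p = 0.0147), Capg (-0.66, 0.0186) and Itga4 (-0.54, 0.0495), against 0.281, 0.240 and 0.243 without it. Of 7 naive T cell genes, Tcf7 fell in both, from 1451 and 1344 to 420 and 389 CPM in CD4 (-1.79, SE 0.17, adjusted p = 0.00137) and from 285 and 386 to 141 and 168 in CD8 T cells (-1.12, SE 0.16, adjusted p = 0.0251). Lef1, another such transcription factor, fell in CD4 T cells (-0.54, SE 0.14, adjusted p = 0.0481), and Klf2 was not called in either. Of all genes, 5.08% were called as lower in CD4 and 2.07% were called in CD8 T cells. The block added Ccr7 as lower in CD4 T cells (-0.66) and Il7r as higher in both cell types (0.60 and 0.55), beside 30.1% and 18.2% of all genes.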

How the data were processed

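RNA of the 8 libraries was sequenced as single reads of 51 bases. Per the study's methods the authors aligned them with STAR 2.7 to mm10 and counted them per gene with HTSeq-count 0.11. The deposited tables hold raw read counts per gene, used for all main tests, and RPKM made by the authors from counts and exon length, used for levels between genes and as an alternative. Library kit and strand are described differently in labels and methods, and the growth and treatment fields of the labels describe unrelated cells, so they were not used. The members and gene lists were chosen with earlier results of these data known, and by that rule all 10 members are named, with up to 4 called genes per other list.

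Genes were kept by filterByExpr (minimum count 10), scaled by TMM (factors 0.982 to 1.03) and tested by edgeR 4.0.16 (R 4.3.3) quasi-likelihood over all 8 libraries in 5 comparisons, two-sided, with Benjamini-Hochberg adjustment and a threshold of 0.05. The test was checked on simulated counts. Labels do not say that libraries came from separate experiments, so p-values measure the spread between libraries, which pool animals. Titles number the replicates 1 and 2 in each group. The differences of replicate 1 from 2 correlated across genes between groups (r = 0.440 to 0.712 over 6 pairs of groups), so the numbers were taken to pair libraries, and blocked values are given beside a member where they changed its call, and for the other lists by count or by name. Alternatives were DESeq2 1.42.0, other scalings and filters, limma 3.58.1 on RPKM, the compared libraries alone and leaving out each library. The authors' counts give between 764 and 42419 reads per member and library, and the spread between libraries includes this counting error.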

Additional observations from a re-analysis of the deposited data

Results flagged for a closer look

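The effect of STAT3 loss differed between CD8 and CD4 T cells for 2 annexin genes by the test of the difference with the replicate block. For Anxa6 the effect was lower in CD8 T cells by 0.77 on the log2 scale (value -0.77, adjusted p = 0.0115 with the block and 0.130 without), and for Anxa2 the value was -0.47 (adjusted p = 0.0490 with the block and 0.314 without). Lgals3 was higher in both STAT3ko than in both WT libraries of CD4 T cells and lower in both of CD8 T cells, with a difference of -0.41, but the difference did not pass the test (adjusted p = 0.585 without the block and 0.149 with it).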

How the results depend on the processing

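With 2 libraries per group, small differences could not be detected. Of the members' log2 fold changes over 5 comparisons, other settings left 405 on the same side of the threshold and in the same direction, 11 passed it newly, 19 no longer passed it and 5 changed direction; without 1 library the numbers were 358 unchanged, 28 lost and 14 of changed direction. In CD4 T cells STAT3ko against WT called 5 members, 3 with limma on log2(RPKM + 1) or log2(RPKM + 0.1), and 1 with log2(RPKM + 1) unfiltered. With limma on log2(RPKM + 1), Anxa2 (adjusted p = 0.0668) and Lgals1 (0.0845) lost their calls, and with log2(RPKM + 0.1) they were at 0.0672 and 0.0770. The unfiltered setting also lost S100a10 (0.118) and Anxa1 (0.0879). Anxa2 lost its call with the 4 compared libraries alone as well (0.0986). In CD8 T cells it called 0 members, but 1 without the filter, with DESeq2 or with the replicate block. For the difference of the effects 0 became 2 with DESeq2 and with the block. WT CD8 against CD4 called 7, 4 with unfiltered RPKM, and 5 to 6 without 1 library; S100a4 also lost its call with log2(RPKM + 1) (0.209) and log2(RPKM + 0.1) (0.186), and S100a10 with log2(RPKM + 1) (0.0549). STAT3ko CD8 against CD4 called 4, 2 with unfiltered RPKM, and 1 to 4 without 1 library. The block changed no other call of a member than those given for S100a13, S100a10, Anxa6, Anxa2 and S100a6. The cause was not tested.

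The log2 fold change of Anxa6 in CD8 T cells changed sign around 0: -0.0010 without the filter, -0.032 with total counts, -0.00097 with each RPKM setting, and -0.021 to 0.026 without 1 library. Other ranges without 1 library that crossed 0 were, in CD8 T cells, -0.11 to 0.17 for S100a4, -0.21 to 0.39 for Anxa1, -0.13 to 0.22 for Lgals1 and -0.070 to 0.26 for S100a13. They were -0.098 to 0.28 for S100a6 in CD4 T cells, -0.23 to 0.058 for S100a11 in the difference of the effects and -0.10 to 0.19 for S100a11 in STAT3ko CD8 against CD4.

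Over all genes, the calls in CD4 T cells (1444) became 3747 with the block and 412 to 1307 without 1 library. Those in CD8 T cells (257) became 2258 with the block, 885 with DESeq2, 454 unfiltered, 67 with unfiltered RPKM, 37 with the 4 libraries compared and 7 to 224 without 1 library. For the difference (0) they were 403 with the block, 188 with DESeq2, 44 unfiltered, and 13 and 19 with log2(RPKM + 1) filtered and unfiltered. For CD8 against CD4 they were 5232 with the block, 1919 with the 4 libraries and 1546 to 2598 without 1 library in WT (2957), and 3689 with the block and 457 to 1554 without 1 library in STAT3ko (1555).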
